A study of Rattus norvegicus with 24 samples.

Results

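Genes of leukocyte adhesion to the vessel wall were followed in the injured rat brain: the selectins Sele and Selp, the selectin ligand Selplg, the adhesion molecules Icam1, Icam2 and Vcam1, and the hyaluronan receptor Cd44. Each was taken by its gene symbol from the 26641 named loci of the messenger RNA table, and all 7 were found. Icam2 was listed at 2 loci, of which the one with the higher mean over the 24 libraries was used. The libraries came from 12 adult male Sprague-Dawley rats, 6 with traumatic brain injury (TBI) by lateral fluid percussion and 6 sham-operated rats that had anaesthesia and the same surgery without the impact. From each rat the perilesional cortex and the ipsilateral thalamus were taken 3 months after surgery, which gives 4 groups of 6 libraries. The TBI rats had been chosen for chronic perilesional inflammation on magnetic resonance imaging, so they do not stand for every injured rat, and the brains had been flushed with saline before dissection.

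Leukocytes leave the blood in steps. E-selectin (Sele) and P-selectin (Selp) on activated endothelium bind carbohydrate ligands such as P-selectin glycoprotein ligand 1 (Selplg) on leukocytes, which slows the cells to a roll. ICAM-1, ICAM-2 and VCAM-1 on endothelium then bind leukocyte integrins and hold the cells firmly, and CD44 binds hyaluronan and osteopontin on many cell types, reactive astrocytes and leukocytes among them. In brain, Selplg is also a transcript of resting microglia, and Vcam1 and Icam1 are made by cells other than endothelium.

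The values are fragment counts divided by the authors by a scaling factor for each library, here called normalized counts. They allow a gene to be compared between libraries, but they are not per length, so levels of different genes are not ranked. Per library, 30568927 to 54608922 fragments were recovered, with a median of 39660896.5. The cortex identity list was lower in the thalamus than in the cortex of sham rats for 7 of 8 tested genes. The thalamus list was higher for 8 of 8. Of all 15678 loci tested in this comparison 4375 were lower in the thalamus and 5256 higher. Of 15 endothelial markers, 3 were higher in the cortex of TBI rats and 7 in the thalamus, with none lower, where 14.3% and 14.5% of all tested loci were higher. The summed normalized count of this list was 29399 to 34481 in sham cortex, 31958 to 36750 in TBI cortex, 24584 to 31228 in sham thalamus and 28534 to 40876 in TBI thalamus. In these bulk samples, more cells of a type and more RNA per cell cannot be told apart.

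In the positions deposited with the table, Icam1 lies on chromosome 8 from 22092134 to 22103929 and Vcam1 on chromosome 2 from 237158194 to 237177632. Cd44 lies on chromosome 3 from 99338196 to 99426129 and Selplg on chromosome 12 from 50347593 to 50362021. Sele and Selp are neighbours on chromosome 13, from 87235308 to 87243154 and from 87318110 to 87344163. Both loci named Icam2 have the same span on chromosome 10, from 94315534 to 94324597. Each span is that of a whole assembled gene locus. The labels name the build Rnor_5.0 and the study's methods also name an older one, and which of these the positions follow was not settled.

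The promoter windows of Icam1, Vcam1 and Cd44 are shown because these are the 3 genes called higher with injury in at least 1 region, Vcam1 in the thalamus alone. Each window holds 250 bases before and 50 after the gene's start in RefSeq, build GRCr8, read 5′ to 3′ on the gene's strand. Icam1 is at chr8:27829595-27829894 on the plus strand, Vcam1 at chr2:206742734-206743033 on the minus strand and Cd44 at chr3:109699375-109699674 on the minus strand. Capitals mark matches on either strand to GGNNNTTCC, a loose form of the site bound by NF-kappaB, to TATAAA, the TATA box, and to TGANTCA, the AP-1 site. These 3 motifs were picked after the windows had been read.
Icam1: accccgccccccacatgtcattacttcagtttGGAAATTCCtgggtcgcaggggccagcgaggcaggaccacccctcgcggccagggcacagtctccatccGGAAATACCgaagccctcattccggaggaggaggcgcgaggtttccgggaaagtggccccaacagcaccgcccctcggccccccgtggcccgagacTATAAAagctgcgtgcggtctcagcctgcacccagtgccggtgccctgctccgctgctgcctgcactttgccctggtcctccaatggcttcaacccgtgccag
Vcam1: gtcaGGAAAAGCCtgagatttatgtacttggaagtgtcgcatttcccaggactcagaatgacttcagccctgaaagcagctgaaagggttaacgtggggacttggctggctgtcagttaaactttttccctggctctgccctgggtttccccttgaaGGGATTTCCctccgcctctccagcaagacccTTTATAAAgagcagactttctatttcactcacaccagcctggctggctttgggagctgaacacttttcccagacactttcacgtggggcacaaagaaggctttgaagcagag
Cd44: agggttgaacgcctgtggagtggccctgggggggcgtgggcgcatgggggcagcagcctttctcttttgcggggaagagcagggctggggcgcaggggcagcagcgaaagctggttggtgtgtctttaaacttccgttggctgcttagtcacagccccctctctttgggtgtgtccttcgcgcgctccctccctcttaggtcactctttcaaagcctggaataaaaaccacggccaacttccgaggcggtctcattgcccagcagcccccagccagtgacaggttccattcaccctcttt
In the Icam1 window GGNNNTTCC matched at bases 33 to 41, on both strands, and at bases 102 to 110, and TATAAA at bases 198 to 203, counted from 1 at the 5′ end. In the Vcam1 window GGNNNTTCC matched at bases 5 to 13 and 158 to 166, and TATAAA at bases 189 to 194 and 191 to 196 on opposite strands, which overlap. The Cd44 window and that of Sele, the other member in the promoter table, held no match to these letters, which says nothing about the factors. Of 33469 promoter windows of the same length, 18.3% held GGNNNTTCC, 14.2% held TATAAA and 7.33% held TGANTCA.

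**Figure D1:**
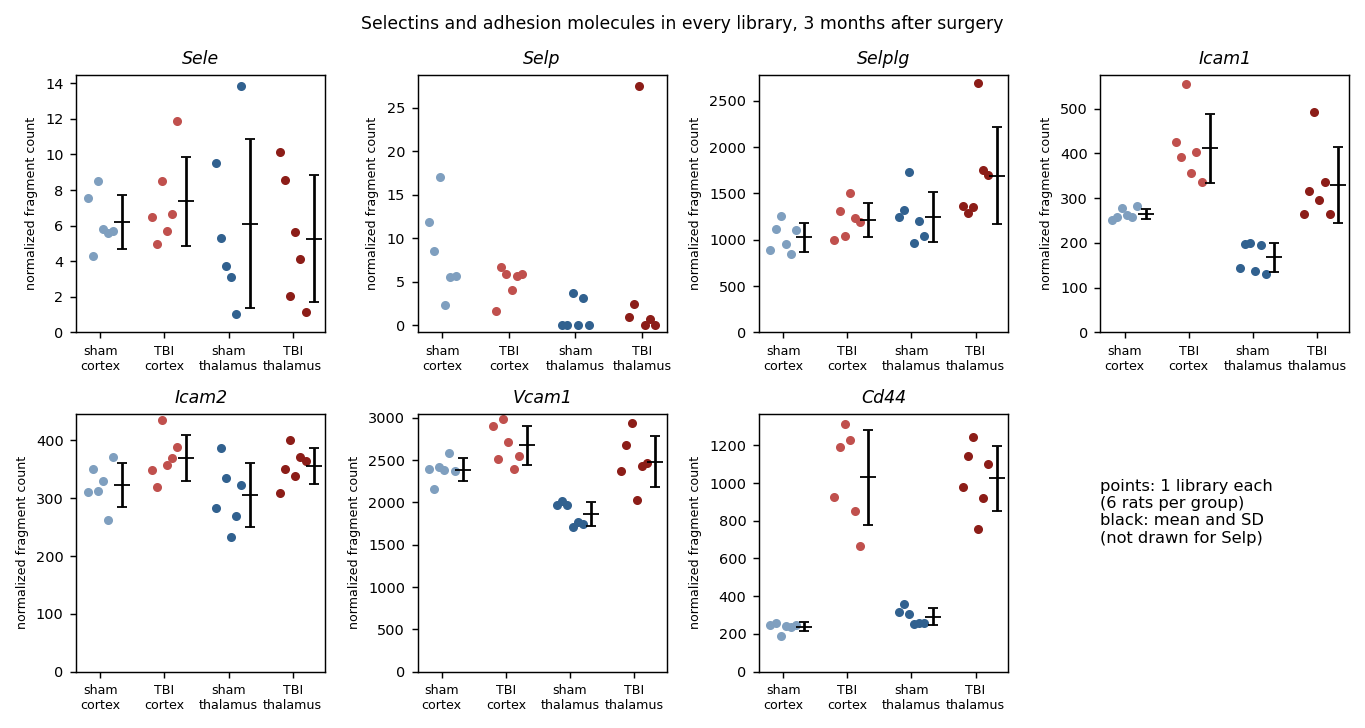
Normalized fragment count of each gene (y axis, from 0 upward) in sham cortex, TBI cortex, sham thalamus and TBI thalamus (x axis). Each point is 1 library of 6 per group, and the black marks give the mean and SD, which are not drawn for Selp. For Cd44 and Icam1 all 6 TBI libraries lie above all 6 sham libraries of the same region, and for Selp a single TBI thalamus library stands at 27.4.

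In the perilesional cortex, Cd44 and Icam1 were higher in TBI than in sham-operated rats, Cd44 by 2.08 on the log2 scale and Icam1 by 0.62. Vcam1, Selplg and Icam2 had small positive differences that did not pass the test, and the endothelial selectins were counted at a few fragments per library in both groups. So 2 of the 5 members that could be tested across all loci were higher and none was lower. Of all 15493 tested loci, 14.3% were higher. These calls come from limma on log2(normalized count + 1), with the variance moderated along the mean level, and a Benjamini-Hochberg adjusted p under 0.05 over all tested loci.

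Cd44 in the sham cortex ranged from 192 to 257 normalized counts, with a median of 246. In the TBI cortex it ranged from 668 to 1311, with a median of 1058. The lowest TBI value was above the highest sham value. The means were 237 ± 23.5 (SD, n = 6) in sham and 1029.7 ± 253 (SD, n = 6) in TBI. The fitted log2 difference was 2.08 with an SE of 0.14, a 4.23-fold change on the log2(normalized count + 1) scale, with a limma adjusted p of 7.9e-07.

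Icam1, a ligand of the integrins LFA-1 and Mac-1, ranged from 251 to 281 normalized counts in the sham cortex, with a median of 260.2. In the TBI cortex it ranged from 337 to 555, with a median of 397. These groups did not overlap either, and the sham libraries were close to each other, with an SD of 12.1 against 77.1 in TBI. The fit gave a log2 difference of 0.62 with an SE of 0.10 and a limma adjusted p of 5.2e-04. Of all tested loci, 7.02% had every TBI library above every sham library in the cortex.

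Vcam1, a ligand of the integrin VLA-4, ranged from 2158 to 2583 normalized counts in the sham cortex, with a median of 2388, and from 2400 to 2982 in the TBI cortex, with a median of 2632. In 3 of 6 TBI libraries it was above every sham library, and the groups overlapped. Its fitted log2 difference was 0.16 with an SE of 0.060, a 95% interval of 0.036 to 0.29 and a limma adjusted p of 0.0520. Its call is sensitive: 8 of 23 other settings put it under 0.05. Among these were upper quartile scaling with an adjusted p of 0.0352, edgeR with 0.0491 and DESeq2 with 0.0303 on the recovered fragments, and leaving out sham rat 50, TBI rat 24, TBI rat 56 or TBI rat 63, with 0.0270 to 0.0445.

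Selplg ranged from 846 to 1252 normalized counts in the sham cortex and from 997 to 1503 in the TBI cortex, with medians of 1025 and 1215. Its log2 difference was 0.24 with a 95% interval of 0.0077 to 0.47 and a limma adjusted p of 0.111. Icam2, a ligand of LFA-1 that endothelium and platelets carry at rest, ranged from 263 to 372 in sham and from 320.2 to 436 in TBI, with medians of 321 and 364. Its log2 difference was 0.20 with a 95% interval of -0.000077 to 0.39 and a limma adjusted p of 0.123. For both genes 2 of 6 TBI libraries exceeded every sham library. Neither interval shows that the gene stayed the same.

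**Figure D2:**
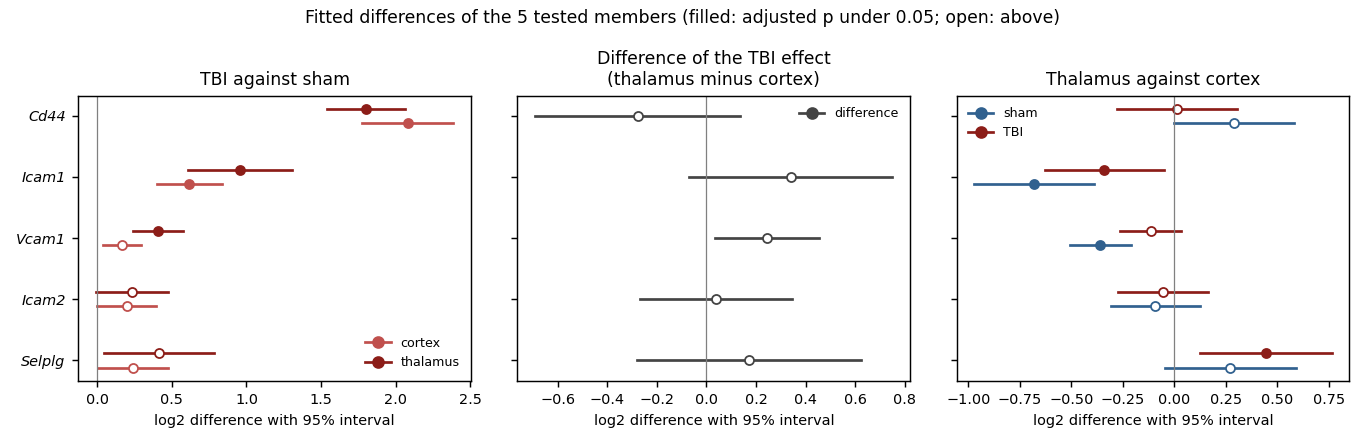
Fitted log2 differences (x axis) of the 5 tested members (y axis) with their 95% intervals: TBI against sham in each region, the difference of that effect between regions, and thalamus against cortex in each condition. Filled points have an adjusted p under 0.05. Cd44 and Icam1 are filled for TBI against sham in both regions and Vcam1 in the thalamus alone, while no point is filled for the difference between regions.

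In the ipsilateral thalamus, 3 members were higher in TBI rats: Cd44 by 1.80, Icam1 by 0.96 and Vcam1 by 0.41 on the log2 scale. None was lower, and Selplg and Icam2 did not pass the test. Thus 3 of 5 tested members were higher, where 14.5% of all 15564 tested loci were. Every TBI library was above every sham library for these 3 genes, as for 7.46% of all tested loci. Over all loci 2259 were higher and 3257 lower, a split that became 2796 and 2357 under TMM scaling, and the 3 members were called under both.

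Cd44 ranged from 252 to 360 normalized counts in the sham thalamus, with a median of 283. In the TBI thalamus it ranged from 758 to 1242, with a median of 1039.5. The gap between the groups was wider than the whole range of the sham libraries, and the SD was 43.5 in sham and 174 in TBI (n = 6 each). The log2 difference was 1.80 with an SE of 0.12, a 3.49-fold change, with a limma adjusted p of 2.15e-07.

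Icam1 ranged from 131 to 200.3 normalized counts in the sham thalamus, with a median of 169, and from 264 to 492 in the TBI thalamus, with a median of 307. The highest TBI value, in rat 45, stood apart from the next at 335. The log2 difference was 0.96 with an SE of 0.16, a 1.94-fold change, with a limma adjusted p of 4.46e-04. Without rat 45 it was 0.83, the smallest value over the libraries left out in turn, and still called.

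Vcam1 ranged from 1706 to 2016 normalized counts in the sham thalamus, with a median of 1867. In the TBI thalamus it ranged from 2023 to 2931, with a median of 2446. The groups nearly touch, since the lowest TBI library, that of rat 52, was at 2023 and the highest sham library at 2016. The log2 difference was 0.41 with an SE of 0.079 and a limma adjusted p of 0.00115, and it was called in all 23 other settings, with adjusted p of at most 0.00702.

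Selplg ranged from 959.6 to 1728 normalized counts in the sham thalamus and from 1287 to 2690.1 in the TBI thalamus, with medians of 1225 and 1531. The highest TBI library, of rat 52, was well above the next at 1750.4. Its fitted log2 difference was 0.41 with an SE of 0.17 and a limma adjusted p of 0.0779. Without TBI rat 52 the difference was 0.27 with an adjusted p of 0.144. Selplg was called in 4 of 23 other settings, among them DESeq2 with an adjusted p of 0.0250 and the fit without sham rat 34 with 0.0289. Icam2 ranged from 232 to 387 in sham and from 309 to 400.3 in TBI, with overlapping groups, a log2 difference of 0.23 with a 95% interval of -0.0071 to 0.48, and a limma adjusted p of 0.123. Without sham rat 32 its adjusted p was 0.0342.

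A fit of injury by region to the 24 libraries asked whether the effect of TBI differed between cortex and thalamus. None of the 5 tested members was called, while 7.26% of 15678 tested loci were, and edgeR and DESeq2 on the recovered fragments also called none. One member, Vcam1, had an unadjusted p under 0.05. Its effect was 0.24 larger in the thalamus on the log2 scale, with an SE of 0.10, an unadjusted p of 0.0236 and a limma adjusted p of 0.148. Leaving out the TBI thalamus library of rat 52 brought that adjusted p to 0.0402. For Icam1 the difference was 0.34 with a 95% interval of -0.069 to 0.75, and 0.22 without the TBI thalamus library of rat 45. For Cd44 it was -0.28 with an interval of -0.69 to 0.13. So Vcam1, called in the thalamus and not in the cortex, is not shown to respond differently in them.

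The members were also compared between regions of the same condition. In sham rats Icam1 and Vcam1 were lower in the thalamus than in the cortex, by 0.68 with a limma adjusted p of 1.62e-04 and by 0.36 with 1.13e-04. For each of them all 6 sham cortex libraries were above all 6 sham thalamus libraries, as for 19.1% of 15678 loci. Cd44 and Selplg had higher means in the thalamus, with log2 differences of 0.29 and 0.27 and limma adjusted p of 0.0778 and 0.133, and Icam2 differed by -0.092. With the rat as a block, which uses that each rat gave both regions, Selplg passed with an adjusted p of 0.0219. Thus 2 of 5 tested members were called without the block, where 61.4% of 15678 loci were.

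In TBI rats, Icam1 was again lower in the thalamus, by 0.34 with a limma adjusted p of 0.0392, and Selplg was higher, by 0.44 with 0.0157. Vcam1 differed by -0.11 with an adjusted p of 0.176. Cd44 differed by 0.013 with an adjusted p of 0.943, a difference whose 95% interval ran from -0.28 to 0.30 and whose sign turned under TMM scaling. Here 2 of 5 were called, against 60.6% of all loci. In order of group means, Icam1 and Vcam1 were highest in TBI cortex, followed by TBI thalamus, sham cortex and sham thalamus. Of these neighbours TBI thalamus and sham cortex had overlapping ranges for both genes and no planned test. The ranges of TBI cortex and TBI thalamus overlapped as well, with the adjusted p of 0.0392 for Icam1 and 0.176 for Vcam1. Cd44 was at 1029.7 in TBI cortex and 1024 in TBI thalamus, neighbours that did not differ beyond their spread, with both sham groups far below. The order of Icam2 was that of Icam1, with every neighbouring pair overlapping. Selplg was highest in TBI thalamus, followed by sham thalamus, TBI cortex and sham cortex, and each neighbouring pair overlapped.

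The endothelial selectins were near the limit of detection. Sele had 1 to 14 fragments in every library of the 4 groups, with medians of 5.74 normalized counts in sham cortex, 6.55 in TBI cortex, 4.53 in sham thalamus and 4.88 in TBI thalamus. By an exact two-sided permutation test over all splits of 6 against 6, adjusted over 4 tests, its log2 difference was 0.19 in the cortex with an adjusted p of 0.696 and -0.13 in the thalamus with an adjusted p of 0.838. The smallest p this test can give is 0.00216. No change of Sele was detected.

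Selp in the cortex ranged from 2.32 to 17.0 normalized counts in sham, with a median of 7.12, and from 1.62 to 6.65 in TBI, with a median of 5.82. The groups overlapped, and the exact permutation test gave a log2 difference of -0.55 with an adjusted p of 0.696. In the thalamus Selp was at 0 in 4 of 6 sham libraries and at most 3.76 in the others. It was at 27.4 in TBI rat 45, from 27 fragments, and at most 2.45 in the other TBI libraries, 2 of which were at 0. The log2 difference was 0.68 with an adjusted p of 0.696 by the exact permutation test, and without rat 45 it was -0.0072.

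In the thalamus Selp was highest in the libraries with the most transcripts of the choroid plexus, the secretory tissue of the ventricles. There the 3 libraries with a summed normalized count over 10000 for 8 choroid plexus markers, of TBI rat 45 and sham rats 34 and 50, had 3.15 to 27.4 normalized counts of Selp. In the other 9 libraries the sum was 610.4 to 1822 and Selp was 0 to 2.45. The values of sham rats 34 and 50 came from 3 fragments each, and the 2.45 of TBI rat 24 from 2 fragments. Apart from rat 45, the order of the thalamus libraries thus rests on very few fragments. In the cortex the 3 libraries over 10000 had 5.95 to 17.0 of Selp and the other 9 had 1.62 to 8.58. None of the 8 markers was called in either region. The markers ranged in sum from 937 to 24026 in sham cortex, 1158 to 33173 in TBI cortex, 610.4 to 108798 in sham thalamus and 718 to 264618 in TBI thalamus. None of the 8 was at 0 in every library. Their part in the Selp values was not tested. Selp is also a platelet gene. Of 6 platelet markers only 2 reached the minimum in each region. Itga2b was higher in the cortex by 0.87 with a limma adjusted p of 0.00244, and had 0.36 in the thalamus with 0.115. The other, lower in both regions, was a locus that joins Gp1bb with Sept5, a gene of neurons. The summed level of the 6 markers was 42620 to 52137 in sham cortex and 38982 to 46364 in TBI cortex. It was 15054 to 18756 in sham thalamus and 12092 to 14318 in TBI thalamus, most of it from that joined locus.

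**Figure D3:**
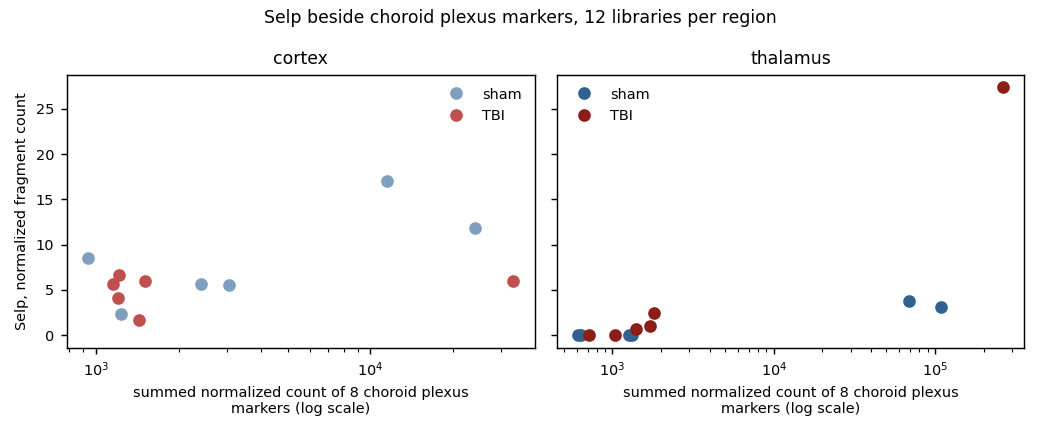
Selp in normalized fragment counts (y axis) against the summed normalized count of 8 choroid plexus markers (x axis, log scale) in the 12 libraries of each region, sham and TBI. In the thalamus the 3 libraries on the right hold the 3 highest Selp values, 3.15 to 27.4, and the other 9 are at 0 to 2.45. The sham libraries among these 3 have only 3 fragments of Selp each.

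The called members were measured again without these 6 libraries, a choice made after the data were seen. In the cortex Cd44 was higher by 1.95 and Icam1 by 0.53 on the log2 scale, with limma adjusted p of 3.39e-05 and 0.00330. In the thalamus Cd44 was higher by 1.72, Icam1 by 0.96 and Vcam1 by 0.36, with adjusted p of 6.63e-06, 2.81e-04 and 0.00702. Selplg in the thalamus was higher by 0.58 and passed with an adjusted p of 0.0315. So the calls of Cd44, Icam1 and Vcam1 were present without the libraries rich in choroid plexus transcripts.

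The same TBI rat had the highest value in both regions for each of the 5 tested members. It was rat 45 for Icam1, Icam2, Vcam1 and Cd44, and rat 52 for Selplg. Over the 15678 tested loci, 25.4% had their highest TBI library from the same rat in both regions, and 11.0% had it from rat 45. Among sham rats 2 of the 5 members, Selplg in rat 34 and Cd44 in rat 32, had the same rat highest in both regions, against 19.6% of loci. The 4 genes led by rat 45 were read from the same 2 libraries of 1 animal, and this pattern was noticed after the values were seen. Rat 45 was also the highest TBI rat in both regions for the summed markers of endothelium, at 36750 in the cortex and 40876 in the thalamus, of fibroblasts and mural cells, at 39119 and 38602, and of the choroid plexus, at 33173 and 264618. Their part in the pattern was not tested.

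**Figure D4:**
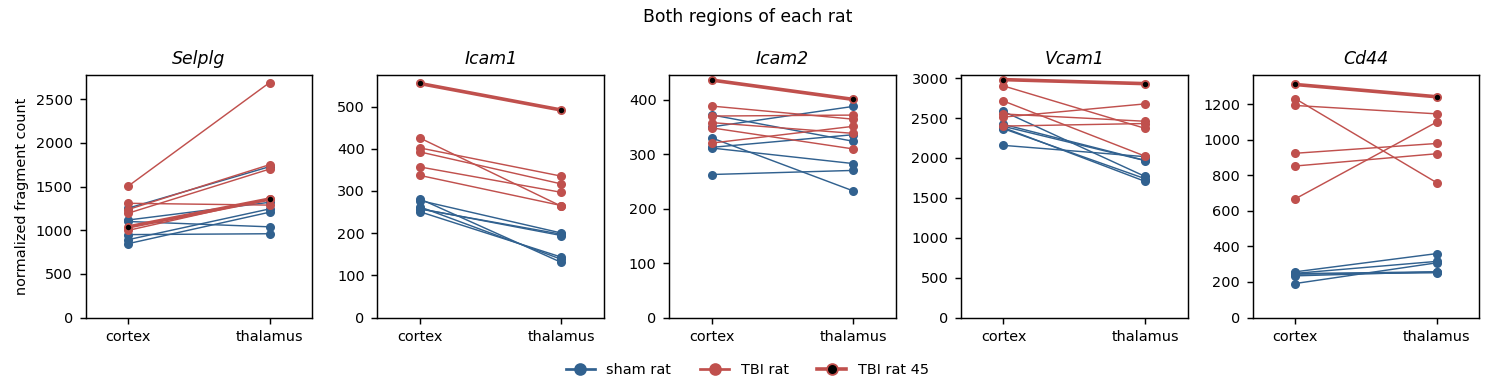
Normalized fragment count (y axis) of the 5 tested members in the cortex and the thalamus of each rat, joined by a line: 6 sham rats, 6 TBI rats, and rat 45 with black points. Rat 45 is the highest TBI rat in both regions for Icam1, Icam2, Vcam1 and Cd44, and rat 52 for Selplg.

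The genes whose profiles over the 24 libraries were nearest to each member were found by the root mean square difference of log2(normalized count + 1), each centred on its own mean. For Icam1 they were Pdpn, which encodes podoplanin, a ligand of a platelet receptor, at 0.171 and Irf1, an interferon-response factor, at 0.201. For Vcam1 they were Ctsl1, the lysosomal protease cathepsin L, at 0.0998 and Slc18b1, a polyamine transporter, at 0.102. For Cd44 they were Mpa2l at 0.250 and Ssc5d at 0.339. Icam2 was nearest to Nadk at 0.142 and Mrps6 at 0.143, and Selplg to Ndufa4l2 at 0.216 and Acads at 0.216. These distances describe likeness of profile only.

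The other genes of selectin binding were counted with the members among them. Of 12 tested genes in the cortex 5 were higher and none lower, and of 13 in the thalamus 7 were higher and 1 lower, with median log2 differences of 0.19 and 0.40. Over all tested loci the medians were -0.0096 and -0.023, and 14.3% and 14.5% were higher. Fut4 and Fut7 are fucosyltransferases that finish the sialyl Lewis x ligand of selectins. Fut4 was higher in the TBI cortex by 0.99 with a limma adjusted p of 1.59e-04 and differed by -0.19 in the thalamus, with an adjusted p of 0.256 there. That difference between regions was -1.18 with an adjusted p of 3.82e-04. Fut7 rose by 0.84 in the cortex and 0.75 in the thalamus, with limma adjusted p of 0.0167 and 0.00891. B4galt1, a galactosyltransferase of the same pathway, rose by 0.65 and 0.87. The other called genes of the cortex were Cd24 and St3gal4, and Chst2, a sulfotransferase, fell by 0.37 on the log2 scale in the thalamus. Chst4 was under the minimum of 10, and Cd34 was listed at 0 in every library.

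Among endothelial adhesion and junction molecules, members included, 6 of 16 tested genes were higher in the cortex and none lower, and in the thalamus 7 of 15 were higher and 1 lower. The medians were 0.14 and 0.24 on the log2 scale, and of all tested loci 14.3% and 14.5% were higher. Mcam, an endothelial and mural adhesion molecule, rose by 0.32 in the cortex and 0.51 in the thalamus, with limma adjusted p of 0.00497 and 0.00159. Cd99, which acts in the passage of leukocytes through junctions, rose by 0.46 in the cortex with an adjusted p of 0.0215 and had 0.16 with an adjusted p of 0.385 in the thalamus. Plvap, a protein of the diaphragms of fenestrated endothelium, fell by 0.69 on the log2 scale in the thalamus with a limma adjusted p of 8.26e-05.

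Both chains of LFA-1 rose in both regions. The chains of VLA-4, the receptor of VCAM-1, are Itga4 and Itgb1, and they passed in the thalamus alone. Their log2 differences were 0.873 and 0.373 in the thalamus, and 0.102 and 0.0901 in the cortex. The difference between regions had limma adjusted p of 0.1003 and 0.0923, so a different response is not shown. Itgam, a chain of Mac-1, rose by 0.902 in the thalamus and had 0.151 in the cortex. Its effect was 0.750 larger in the thalamus, with a limma adjusted p of 0.0342. Of 13 tested integrin and activator genes in the cortex 6 were higher and none lower, with a median of 0.49. Of 12 in the thalamus 10 were higher and 1 lower, with a median of 0.87. The shares of all tested loci that were higher were 14.3% and 14.5%. Itgal and Itgb2 encode both chains of LFA-1, the receptor of ICAM-1 and ICAM-2. Itgal was higher by 1.09 in the cortex and 1.94 in the thalamus, and Itgb2 by 0.90 and 1.67, with limma adjusted p of at most 2.99e-05. For both the effect was larger in the thalamus, by 0.85 with an adjusted p of 0.0119 and by 0.77 with 6.9e-04. Itgax had means of 6.09 normalized counts in sham cortex and 22.8 in TBI cortex, and of 4.78 and 37.6 in the thalamus. It reached the minimum of 10 only through the TBI libraries, so its log2 differences of 1.72 and 2.77 are a description. The counts of 6 and 10 higher genes above include it. Rasgrp2, an activator of platelet and leukocyte integrins that neurons also express, fell by 0.92 on the log2 scale in the thalamus. Markers of microglia and macrophages moved the same way, with 13 of 14 higher in the cortex and 14 of 14 in the thalamus. Their summed normalized count was 17444 to 18462 in sham cortex, 24681 to 27797 in TBI cortex, 18604 to 24144 in sham thalamus and 37691 to 48664 in TBI thalamus. Their part in the integrin and member values was not tested.

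**Figure D5:**
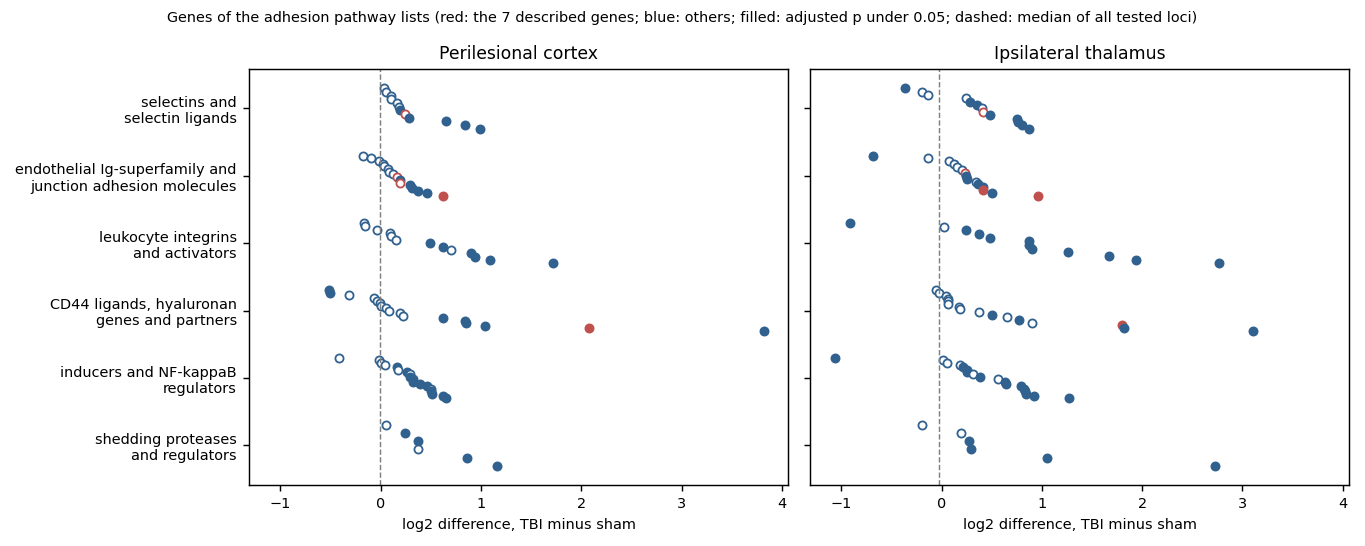
Log2 difference between TBI and sham (x axis) for every tested gene of 6 adhesion lists (y axis) in each region. Red points are the described members, filled points have an adjusted p under 0.05, and the dashed line is the median over all tested loci (cortex -0.0096, thalamus -0.023). Spp1 lies farthest to the right in both regions.

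In the list of CD44 ligands, hyaluronan genes and partners, members included, 6 of 17 tested genes were higher and 2 lower in the cortex, and 5 of 16 were higher and none lower in the thalamus. The medians were 0.080 and 0.28, and of all tested loci 14.3% and 14.5% were higher. Spp1 encodes osteopontin, a secreted ligand of CD44 and integrins. It had a mean of 33.5 ± 10.8 normalized counts in sham cortex and 499 ± 207 in TBI cortex (SD, n = 6 each). In the thalamus it was at 207 ± 27.1 in sham and 1904 ± 760 in TBI. Its log2 difference was 3.82 with an SE of 0.30 in the cortex and 3.11 with an SE of 0.21 in the thalamus, with limma adjusted p of 2.02e-06 and 2.23e-07. Cd74, the invariant chain that pairs with CD44 as a receptor of the cytokine MIF, rose by 1.04 and 1.82. Stab1, a scavenger receptor of macrophages and sinusoidal endothelium, rose by 0.85 in the cortex, and had 0.65 in the thalamus with a limma adjusted p of 0.107. The hyaluronan synthases Has2 and Has3 did not pass in either region, and Has1 fell by 0.50 on the log2 scale in the cortex with a limma adjusted p of 0.0278. Mmp9, a metalloprotease that binds CD44, fell there by 0.52. The other called genes of the list were Msn, which links CD44 to actin, Mmp14, and Tnfaip6, which modifies hyaluronan. Msn rose by 0.62 in the cortex and 0.77 in the thalamus. Mmp14 rose by 0.84 in the cortex and had 0.90 in the thalamus with a limma adjusted p of 0.0618. Tnfaip6 rose by 0.50 in the thalamus and had 0.23 in the cortex with a limma adjusted p of 0.277.

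The next list holds inducers and NF-kappaB regulators of endothelial adhesion genes, among them Nfkbia, an inhibitor of NF-kappaB. In the cortex 11 of 18 tested genes were higher and none lower. In the thalamus 12 of 18 were higher and 1 lower, counts that include Il1b and Tnf. Nfkbia rose by 0.32 in the cortex with a limma adjusted p of 0.0294 and had 0.31 in the thalamus with 0.0516. The medians of the list were 0.31 and 0.47, and of all tested loci 14.3% and 14.5% were higher. Of the interleukin-1 genes, Il1a passed in the thalamus and not in the cortex. Il1a had a log2 difference of 0.92 in the thalamus and 0.046 in the cortex, and the effect differed between regions by 0.88 with a limma adjusted p of 0.0306. Il1b reached the minimum of 10 in the thalamus only through the TBI libraries, with means of 9.29 normalized counts in sham and 25.3 in TBI. Its log2 difference of 1.28 there is a description, and the difference between regions had a limma adjusted p of 0.263. Tnf reached the minimum in the thalamus only through the sham libraries, with means of 19.4 normalized counts in sham and 9.65 in TBI. Its log2 difference of -1.06 there is a description too. Il6 and Ifng were under the minimum of 10.

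The proteases that shed adhesion molecules and their regulators were higher for 4 of 6 tested genes in each region, with none lower. Their medians were 0.38 and 0.28, and of all tested loci 14.3% and 14.5% were higher. Timp1, an inhibitor of metalloproteases, rose by 1.16 in the cortex and 2.73 in the thalamus, with an effect 1.56 larger in the thalamus and a limma adjusted p of 0.00147 for that difference. Rhbdf2, a partner of the protease ADAM17, rose by 0.86 and 1.05. Adam17 itself rose by 0.24 and 0.29, and Adam10 rose by 0.27 in the thalamus. Timp3 rose by 0.37 in the cortex with an adjusted p of 0.0255 and had 0.20 in the thalamus with 0.238.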

How the data were processed

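Stranded libraries of polyadenylated RNA were sequenced on a NextSeq 500. The authors aligned reads with TopHat2 2.0.11 and Bowtie2 2.2.2, assembled loci with Cufflinks 2.2.1 and deposited normalized counts, a signal in which the fragment count of each locus is divided by a size factor per library. Low values were whole multiples of 1 step for 100% of values within 0.1 of a fragment, and this step gave the depth. The intervals given are those of the limma fits, so they reflect the spread between libraries of a group and not counting error alone. The deposited values are not raw counts, so edgeR 4.0.16 and DESeq2 1.42.0 ran only as alternatives on the recovered fragments.

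Groups followed the sample labels. Unnamed loci held 1.90% to 2.23% of each library and entered no test. TBI was compared with sham per region by limma 3.58.1 in R 4.3.3, where the mean of a locus over the 12 libraries reached 10, and the interaction and regional contrasts used all 24. Sele and Selp, under the minimum, were tested by exact permutation. Rat numbers pair the regions: the deviations of a rat's libraries correlated with a median of 0.187, from 0.00393 to 0.569, and 10 of 12 exceeded 0.1. The scripts were tested on simulated data. Alternatives were other scalings, pseudocounts, filters and tools, the rat as a block, each library left out in turn and, added later, the 2 libraries of rat 45 or those rich in choroid plexus transcripts left out. Named are all members, the 3 largest called genes of each list and the 2 nearest loci; other genes of a list were named after their values were seen. The members, lists and motifs were chosen with earlier results of these data known. A pair of genes of these lists is not reported here and was left out of the counts.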

Additional observations from a re-analysis of the deposited data

Results flagged for a closer look

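Among 28 sets of 6 libraries, 7 genes in 4 groups, 4 held a library whose gap to the nearest other exceeded 0.625 of the range of the group. Chance alone gives about 1 in 20 for normally distributed values, a condition that was not checked here. The sets also share libraries, and those of Selp hold few fragments. In the TBI thalamus Selp was at 27.4 normalized counts in rat 45 and at most 2.45 in the others. Icam1 was at 492 in the same library, with the next at 335. Selplg was at 2690.1 in rat 52, with the next at 1750.4. In the sham cortex Cd44 was lowest in rat 34, at 192, with the next at 235.

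The second locus named Icam2, which the comparisons above did not use, had a mean of 14.5 normalized counts in the TBI cortex and 3.88 in the sham cortex. It ranged from 7.14 to 22.9 in TBI and from 1.12 to 6.46 in sham, with every TBI library above every sham library, as for 7.02% of tested loci. With a cortex mean of 9.20, under the minimum of 10, it is not itself among those tested loci. It was singled out after its values were seen, so no test is given for the cortex. In the thalamus the means were 38.9 in TBI and 40.0 in sham, with a log2 difference of 0.15 and a limma adjusted p of 0.784. The difference of the effect between regions was -1.51 on the log2 scale. It is a description, since it holds the cortex values by which the locus was singled out. Both loci cover the same span, and how reads were shared between them was not tested.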

How the results depend on the processing

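Of 480 values of single members under other settings, 460 kept their direction and their side of the threshold, 15 passed it newly, none lost it and 5 changed sign. The sign changes were Cd44 between regions in TBI rats under TMM scaling (-0.0073) and the regional difference of the Icam2 effect without sham cortex rat 55 (-0.0048), without sham thalamus rat 38 (-0.037), without TBI cortex rat 24 (-0.0027) and with both Icam2 loci summed (-0.021). That difference ranged from -0.037 to 0.11 with each library left out.

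Counts of called loci fell at a threshold of 0.01, from 4531 to 2436 in the cortex, from 5516 to 3429 in the thalamus and from 1138 to 404 for the difference between regions. With the libraries over 10000 in choroid plexus markers left out, fewer samples, they fell to 2162 in the cortex and 422 for the difference between regions. With each library left out in turn, 3671 to 5219 loci were called in the cortex, 4522 to 5442 in the thalamus and 813 to 1329 for the difference between regions, and 2 to 3, 3 to 4 and 0 to 1 members, the last being Vcam1 without TBI thalamus rat 52. Sele in the thalamus ranged from -0.43 to 0.14 when a library was left out, being positive without sham rat 26 (0.045), sham rat 55 (0.14), TBI rat 45 (0.038) or TBI rat 63 (0.14). Selp in the thalamus ranged from -0.0072 to 0.99, the lowest without TBI rat 45, Selp in the cortex from -0.81 to -0.33 and Sele in the cortex from 0.053 to 0.27. The causes were not tested.

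With the rat as a replicate block 1301 loci and none of the members were called for the difference between regions. The pairing changed 1 call, that of Selplg between regions in sham rats (adjusted p 0.0219). Sele and Selp had 1 to 14 and 0 to 27 fragments per library.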

Other observations

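Lymphocyte markers were mostly too low to test. Of 4 tested in the cortex Cd4 was higher in TBI rats, by 0.78 on the log2 scale, and the other 3 did not pass. Their summed normalized count, 719 to 1102 in sham thalamus and 2547 to 4218 in TBI thalamus, was mostly Cd4, which rat microglia and macrophages also express and which had means of 862 and 2983. The T cell genes Cd3e, Cd3g, Cd3d and Cd2 had means of 4.23, 1.94, 2.05 and 5.24 in sham thalamus and 5.25, 1.90, 2.21 and 5.50 in TBI thalamus. Cd8b, at 0.165 in sham and 20.7 in TBI, reached the minimum only through the TBI libraries. Of 3 tested neutrophil and monocyte markers Csf3r and Lyz2 were higher in each region. S100a9 did not pass in either, with limma adjusted p of 0.886 in the cortex and 0.266 in the thalamus. Mpo, Elane, S100a8 and Cxcr2 were under the minimum of 10. Perivascular macrophage markers were higher for 3 of 5 in the cortex and none of 5 in the thalamus, against 14.3% and 14.5% of tested loci. These are cells that carry Selplg, Cd44 and the integrins, and their part in the member values was not tested.

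Fibroblast and mural cell markers were higher for 6 of 9 in the cortex and 4 of 9 in the thalamus. Of all tested loci 14.3% and 14.5% were higher. Astrocyte markers were higher for 5 of 9 in each region, and 2 were lower in the cortex. Neuron markers were lower for 10 of 13 in the cortex and 11 of 13 in the thalamus. Over all loci 2308 of 15493 tested were lower in the cortex and 3257 of 15564 in the thalamus. No erythroid marker of 5 was called in either region.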
